A study of Mus musculus with 42 samples.

Results

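The genes described here are 10 genes of the unfolded protein response and the integrated stress response in mouse liver. They are named by symbol (Hspa5, Hsp90b1, Ddit3, Atf3, Atf4, Xbp1, Dnajb9, Herpud1, Trib3 and Asns) and each was found under its own Ensembl gene identifier, 10 of the 54446 genes counted. Poly(A) RNA of whole liver had been sequenced from 42 female APOE*3-Leiden mice, all of which carried the human APOE*3-Leiden transgene that makes mouse plasma lipids respond to diet and to statins. The chow-fed group (n = 10) had maintenance chow throughout and served as the healthy reference. The WTD-fed group (n = 16) entered the study when 8 to 14 weeks old. It had Western-type diet with 15% cocoa butter, 40.5% sucrose and 1% cholesterol for a 3-week run-in and then for 32 weeks. From week 22, counted from the end of the run-in, the diet also held 0.05% sodium cholate. The atorvastatin-treated group (n = 16) had the same run-in, diet and cholate. Atorvastatin was mixed into its food from the end of the run-in at 3.0 mg/kg/day, raised to 4.5 mg/kg/day at week 5. The 2 WTD groups had been matched at the end of the run-in, while the chow-fed mice stood beside them and carry a separate series of mouse numbers (AZ, against Gen for both WTD groups), so diet and that series cannot be told apart.

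The endoplasmic reticulum (ER) folds the proteins that a cell secretes, and hepatocytes, which release albumin, lipoproteins and clotting factors, carry a large ER. When unfolded proteins build up, 3 membrane sensors act: IRE1 (Ern1) splices the Xbp1 mRNA, ATF6 is cut to free a transcription factor, and PERK (Eif2ak3) phosphorylates eIF2α, which slows translation while ATF4 is still made. XBP1 and ATF6 raise ER chaperones and the genes of ER-associated degradation (ERAD), the route that returns misfolded proteins to the proteasome. ATF4 raises stress and amino acid genes, and because other kinases (Eif2ak1, Eif2ak2 and Eif2ak4) feed the same eIF2α step, this arm is called the integrated stress response. Counts per gene show neither the splicing of Xbp1 nor the phosphorylation of eIF2α nor the translation of Atf4.

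The promoters are shown first because the arms differ in the elements through which these factors are known to bind. The search below did not sort all 10 genes into arms. Ddit3, Atf4, Xbp1 and Dnajb9 held no match, and Herpud1 held 2 elements. Each sequence was read from RefSeq windows of GRCm38.p6, 250 bases before to 50 bases after the start site, and all 10 genes had one. The ERSE (CCAAT, 9 bases, CCACG; read by ATF6 with NF-Y and by XBP1) lay in 2 of the 10 windows, those of Hspa5 and Hsp90b1, and in 0.119% of all 32851 windows. ERSE-II (ATTGG, 1 base, CCACG) lay in that of Herpud1, against 0.037% of all windows. The C/EBP-ATF composite element (TGATGNAA, a target of ATF4 dimers) lay in 4 (Atf3, Herpud1, Trib3 and Asns), against 3.97% of all windows, and the match of Trib3 lay after the start site. TGACGTGG, the core of the UPRE of XBP1 (0.676% of all windows), and TGACGTCA, the cAMP response element (1.79%), were in none of the 10. Both strands were searched, none of the matches overlapped another, and no match says only that these letters are not in this window. In the stretches below the capitals mark ERSE in the first pair, the composite element in Atf3 and Asns, and the composite element followed by ERSE-II in Herpud1, each 5′ to 3′ on the strand of the gene.
Hspa5, chr2:34772013-34772055, plus strand: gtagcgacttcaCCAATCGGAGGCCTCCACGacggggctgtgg
Hsp90b1, chr10:86705521-86705668, minus strand: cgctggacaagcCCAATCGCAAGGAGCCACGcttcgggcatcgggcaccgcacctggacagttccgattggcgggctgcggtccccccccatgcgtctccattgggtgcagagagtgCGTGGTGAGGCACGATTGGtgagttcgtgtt
Atf3, chr1:191183424-191183455, minus strand: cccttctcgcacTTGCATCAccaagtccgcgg
Herpud1, chr8:94386305-94386399, plus strand: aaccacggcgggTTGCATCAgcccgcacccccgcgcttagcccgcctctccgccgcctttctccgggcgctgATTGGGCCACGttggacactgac
Asns, chr6:7693213-7693244, minus strand: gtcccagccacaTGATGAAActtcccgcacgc
Hsp90b1 held ERSE once on the strand of the gene and once, nearer the start, on the other strand, and the composite elements of Atf3 and Herpud1 were read on the other strand as the same 8 letters, TTGCATCA.

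Depth was 15661381 to 36224054 counts per mouse (median 19421089.5), and values below are CPM, counts relative to library size after TMM scaling. In 9 of the 42 libraries (3 chow, 5 WTD, 1 atorvastatin) more than 20% of the genes measured at 1 to 2 CPM in their own group had no count, the highest share being 57.29% in chow mouse AZ2. A gene is called when its edgeR quasi-likelihood test gave a Benjamini-Hochberg adjusted p under 0.01 over all 15574 genes tested, all 10 genes included. Scaling by library size without TMM moved the median log2 fold change of all genes from 0.03 to 0.34 for WTD against chow and from 0.00 to -0.16 for atorvastatin against WTD, and the share of called genes that were higher from 52.2% to 82.4% and from 68.2% to 24.4%. Directions below are therefore those relative to the bulk of genes. Hepatocyte markers (Alb, Ttr, Apoa1, Tat, Cps1, Cyp2e1) summed to 105892 to 154268 CPM in chow-fed, 49475 to 105519 in WTD-fed and 58045 to 127098 in atorvastatin-treated mice, and 6 of 6 were called lower on WTD. Macrophage markers (Adgre1, Cd68, Clec4f, Lyz2, Csf1r, Trem2) summed to 260.1 to 423.9, 1184.5 to 2221 and 929.0 to 1576 CPM, with 5 of 6 called higher on WTD and none at 0. In whole liver, fewer cells of a type and less RNA per cell cannot be told apart, and the part of these cell shares in the results below was not tested.

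Levels per kb of exon ran over more than 3 orders of magnitude. In chow-fed mice the medians fell from Hspa5 (445.6 CPM per kb) through Hsp90b1 (217.3), Herpud1 (123.6), Xbp1 (81.7), Atf4 (61.0), Dnajb9 (26.1), Trib3 (14.8), Ddit3 (12.9) and Atf3 (6.94) to Asns (0.109). Each gene lay above the next within 10 of 10 mice, except that Trib3 exceeded Ddit3 in 5 of 10. In WTD-fed mice the first 7 places were unchanged, Atf3 (17.1 CPM per kb) moved above Ddit3 (10.4), and Trib3 (17.1) exceeded Atf3 in 4 of 16 mice. In atorvastatin-treated mice the order was that of the WTD-fed mice, with Trib3 (14.9 CPM per kb) above Atf3 (11.6) in 10 of 16.

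Which of these genes changed with the diet was the first comparison. On WTD, 5 of the 10 genes were called (33.5% of all genes tested were), 4 of them lower (16.0% of all genes) and 1 higher (17.5%). The ER chaperones Hspa5 and Hsp90b1, the ERAD gene Herpud1 and the transcription factor gene Atf4 fell, and Atf3 rose. Xbp1, Ddit3, Dnajb9, Trib3 and Asns did not pass the test. The median log2 fold change of the 10 was -0.31, beside 0.03 over all genes.

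**Figure D1:**
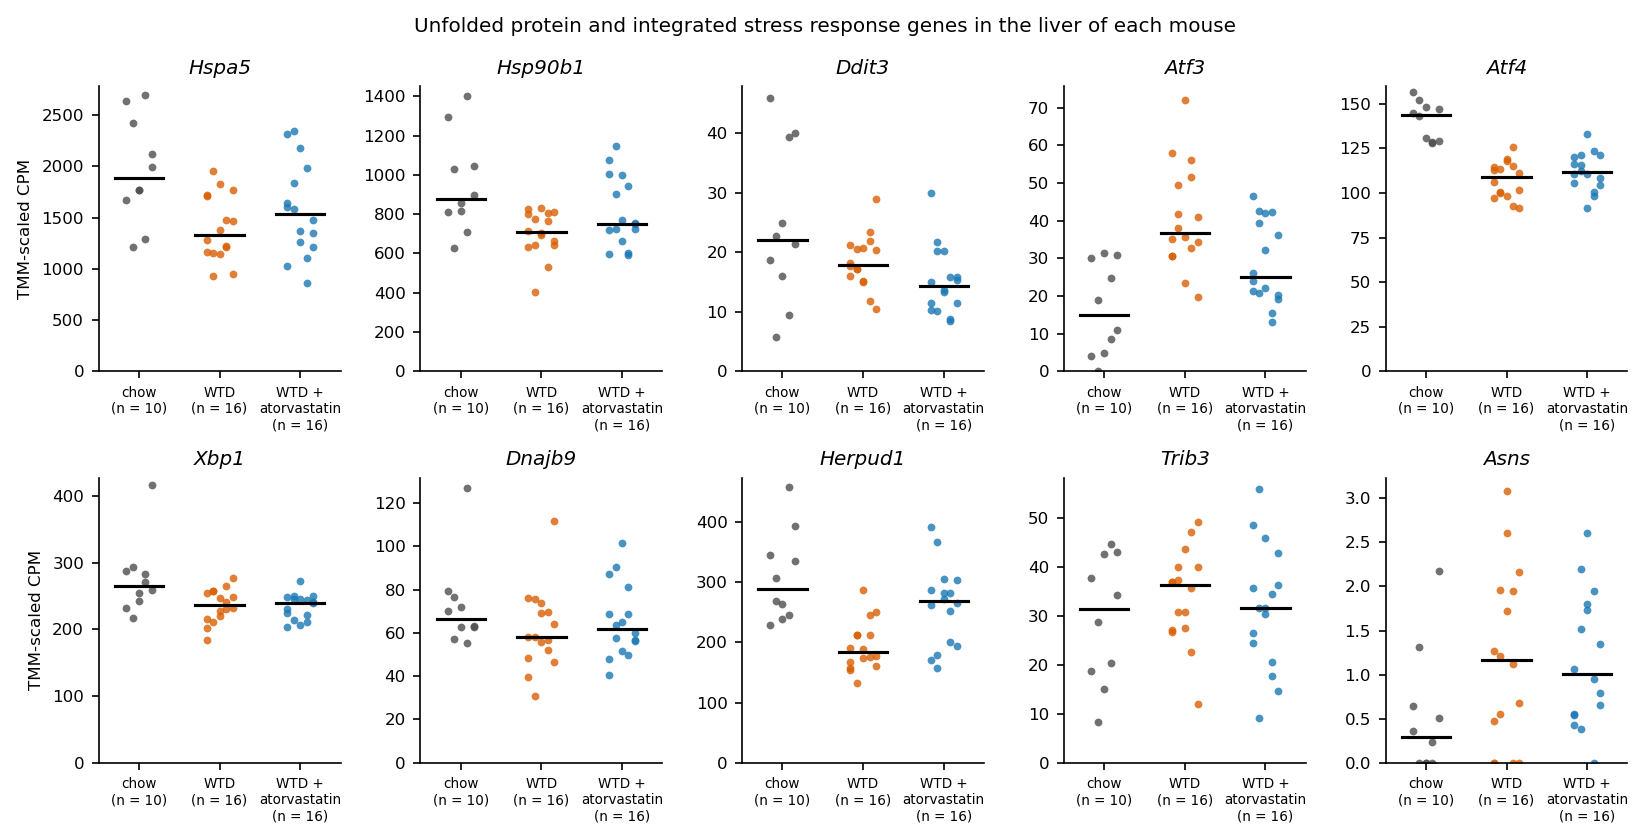
TMM-scaled CPM (linear axes from 0, a scale per gene) of the 10 genes in every mouse, with points for mice and a bar for the group median. All 16 WTD-fed mice lie below all 10 chow-fed mice for Atf4, and 12 of the 16 lie above all chow-fed mice for Atf3.

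Hspa5 encodes BiP, the main Hsp70 chaperone of the ER, which also holds the sensors inactive. It measured 1211 to 2694 CPM in chow-fed mice (median 1884), 927.6 to 1954 in WTD-fed mice (median 1329) and 857.5 to 2346 in atorvastatin-treated mice (median 1532). The ranges overlapped, with 5 of 16 WTD-fed mice under all chow-fed mice. Hspa5 was 1.40-fold lower on WTD (log2 fold change -0.49, SE 0.15, adjusted p = 0.00551). This call was the least firm of the 5: the adjusted p was 0.0523 without the 9 libraries, 0.0178, 0.0167 and 0.0138 without chow mouse AZ4, AZ6 or AZ7, 0.012 with RLE size factors and 0.417 with library size scaling, where the log2 fold change was -0.17.

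Hsp90b1 encodes GRP94, the Hsp90 chaperone of the ER. It measured 625.5 to 1403 CPM in chow-fed (median 876.3), 404.7 to 831.6 in WTD-fed (median 710.0) and 589.6 to 1146 in atorvastatin-treated mice (median 750.9). All 16 WTD-fed mice were below the chow median. It was 1.35-fold lower on WTD (log2 fold change -0.43, SE 0.12, adjusted p = 0.00184) and called in every fit that left out 1 mouse. With library size scaling the value was -0.12 and not called (adjusted p = 0.468), which lies 0.46 below the median of all genes there. A pseudogene transcript on the other strand, 1810014B01Rik, shares 415 of its 4032 exon bases.

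Herpud1, an ER membrane protein that organises the ERAD ubiquitin ligase complex, showed the largest fall of the 10. It measured 228.8 to 458.2 CPM in chow-fed mice (median 288.4) and 132.1 to 287.8 in WTD-fed mice (median 183.9), with 13 of 16 WTD-fed mice below all chow-fed mice. The difference was 1.59-fold (log2 fold change -0.67, SE 0.13, adjusted p = 2.51e-05). The adjusted p was 0.0192 with library size scaling (log2 fold change -0.37).

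Atf4, the transcription factor at the centre of the integrated stress response, varied little within groups, with a coefficient of variation of 7.65% in chow-fed, 9.51% in WTD-fed and 9.52% in atorvastatin-treated mice. It measured 127.9 to 156.8 CPM in chow-fed mice (median 143.8) and 91.3 to 125.6 in WTD-fed mice (median 108.7), so the groups did not overlap. It was 1.31-fold lower on WTD (log2 fold change -0.39, SE 0.06, adjusted p = 4.28e-07). With library size scaling its log2 fold change was -0.08 (adjusted p = 0.397), 0.42 below the median of all genes at that scaling and the same distance below it as with TMM.

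Atf3, a stress-induced factor of the ATF family, was the 1 gene that rose. It measured 0.128 to 31.3 CPM in chow-fed mice (median 15.0), where the lowest value, from AZ2, was 2 counts, and 19.7 to 72.2 CPM in WTD-fed mice (median 36.8). All 16 WTD-fed mice were above the chow median and 12 were above all chow-fed mice. The difference was 2.47-fold (log2 fold change 1.31, SE 0.35, adjusted p = 0.00224), 1.16 without AZ2 (adjusted p = 0.00112) and 1.63 with library size scaling. In a fit of chow-fed and WTD-fed mice alone the adjusted p was 0.0115. Macrophage markers, given above, moved with it, and their part was not tested.

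Xbp1, the factor activated by IRE1, measured 217.6 to 416.3 CPM in chow-fed mice (median 265.4) and 184.2 to 276.7 in WTD-fed mice (median 236.9). Its log2 fold change on WTD was -0.22 (SE 0.07, adjusted p = 0.0107) and lay just outside the threshold. Without chow mouse AZ5, which held the highest value, it was -0.14 (adjusted p = 0.0781), and without the 9 libraries, of which AZ5 is one, it was -0.26 (adjusted p = 0.00175). Leaving out AZ2, AZ6, AZ8, Gen9, Gen11, Gen13, Gen15, Gen20 or Gen21, each alone, brought it under the threshold, and library size scaling turned its sign to 0.09.

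Dnajb9 (ERdj4), a BiP cochaperone, measured 55.5 to 127.0 CPM in chow-fed mice (median 66.6) and 30.7 to 111.6 in WTD-fed mice (median 58.2), with a log2 fold change of -0.24 (95% interval -0.54 to 0.07, adjusted p = 0.208) that was 0.08 with library size scaling. Ddit3 encodes CHOP, the factor tied to death of stressed cells, and measured 5.75 to 45.9 CPM in chow-fed mice (median 22.1) and 10.4 to 28.9 in WTD-fed mice (median 17.9). Its log2 fold change was -0.40 (95% interval -0.84 to 0.03, adjusted p = 0.13). A second gene identifier with the symbol Ddit3 overlaps 105 of its 1713 exon bases in the same orientation and was at 0 counts in every mouse. On the other strand Mars, with 61716 counts over all mice, shares 68 exon bases with Ddit3, and Gm4189, with 492 counts, shares 13.

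Trib3, a pseudokinase that restrains ATF4 and AKT, measured 8.37 to 44.7 CPM in chow-fed mice (median 31.4) and 12.0 to 49.2 in WTD-fed mice (median 36.3), a log2 fold change of 0.21 (95% interval -0.27 to 0.69, adjusted p = 0.501). Asns, asparagine synthetase and a standard ATF4 target, was close to the detection limit, at 0 to 2.17 CPM in chow-fed mice (median 0.297) and 0 to 3.08 in WTD-fed mice (median 1.17). It had no count in 4 chow-fed, 4 WTD-fed and 1 atorvastatin-treated mice, 4 of them among the 9 libraries that missed weak genes. Its interval on WTD, -0.42 to 2.74, spans both no change and a rise of several fold.

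**Figure D2:**
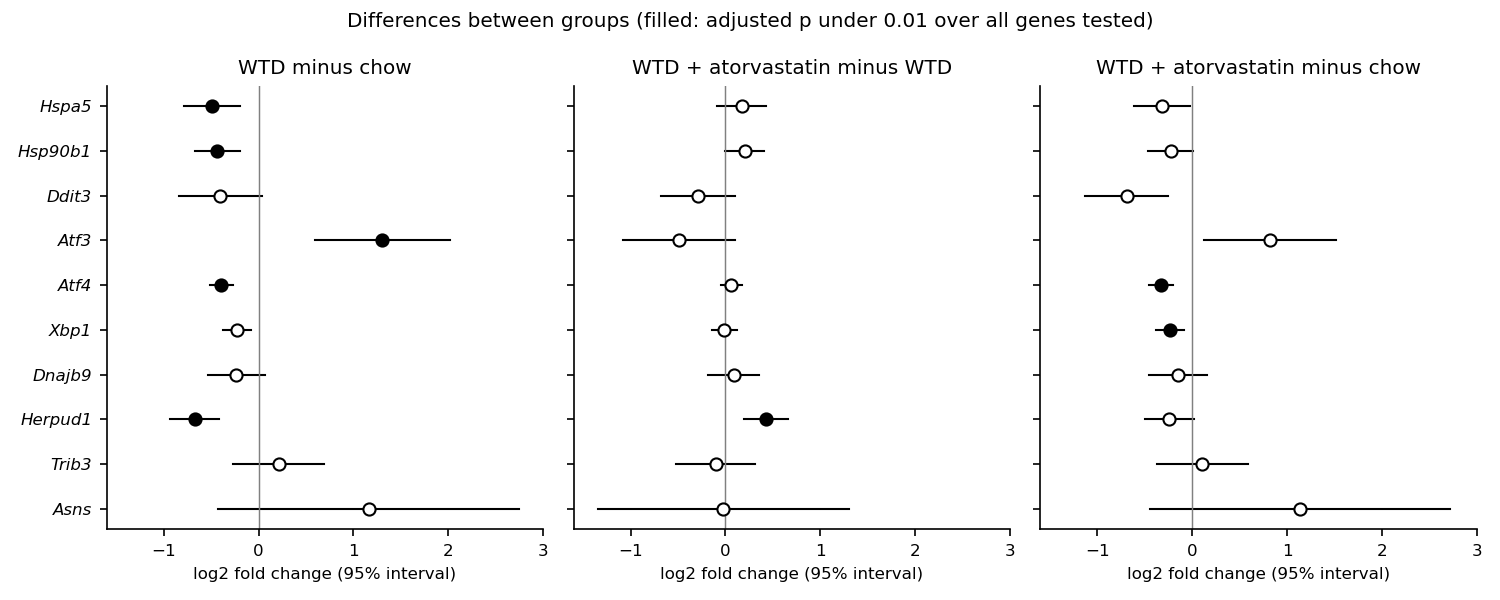
Log2 fold changes of the 10 genes with 95% intervals in the 3 comparisons, filled where the adjusted p over all 15574 genes was under 0.01. Of the 10, 5 are filled for WTD against chow, 1 for atorvastatin against WTD and 2 for atorvastatin against chow.

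The second comparison asked what atorvastatin changed in WTD-fed mice. Herpud1 was called, higher with atorvastatin, and the other 9 genes were not. That is 1 of 10 in either direction and 1 of 10 higher, where 7.10% of all genes were called, 4.84% higher and 2.26% lower. The median log2 fold change of the 10 was 0.03, beside 0.00 over all genes.

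Herpud1 measured 158.2 to 391.7 CPM in atorvastatin-treated mice (median 268.8), and 13 of the 16 exceeded the WTD median, 4 of them exceeding all WTD-fed mice. It was 1.35-fold higher than in WTD-fed mice (log2 fold change 0.43, SE 0.11, adjusted p = 0.00758). The call lies close to the threshold. Over the fits that left out 1 mouse the value was 0.38 to 0.48 and the adjusted p 0.00264 to 0.0174, and the call was lost in 21 of 42 (each alone of Gen1, Gen2, Gen4, Gen5, Gen6, Gen8, Gen13, Gen14, Gen17, Gen21, Gen22, Gen24, Gen26, Gen27, Gen28, Gen29, Gen30, Gen34, Gen35, Gen36 and Gen37). The adjusted p was 0.0162 with RLE size factors, 0.0116 with upper-quartile factors, 0.011 without a filter, 0.0102 with the stricter filter and 0.101 with library size scaling, where the value was 0.28. It was 0.00642 by DESeq2 and 0.00515 without the 9 libraries.

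Hsp90b1 stood at a log2 fold change of 0.21 (95% interval -0.001 to 0.41, adjusted p = 0.206) and Hspa5 at 0.17 (-0.09 to 0.43, adjusted p = 0.473) for atorvastatin against WTD. Of the 16 atorvastatin-treated mice, 12 and 11 exceeded the respective WTD median. Atf3 measured 13.2 to 46.5 CPM with atorvastatin (median 25.0), a log2 fold change of -0.49 (-1.08 to 0.10, adjusted p = 0.325). Ddit3 measured 8.38 to 30.0 CPM (median 14.3), a log2 fold change of -0.29 (-0.67 to 0.10, adjusted p = 0.394).

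Atf4 measured 91.7 to 133.3 CPM with atorvastatin (median 111.6), and the interval of its difference from WTD-fed mice was narrow, at -0.05 to 0.17 around 0.06 (adjusted p = 0.545). Xbp1 measured 203.8 to 272.4 CPM (median 240.3), and its log2 fold change was -0.01 (-0.14 to 0.12, adjusted p = 0.954). Dnajb9 measured 40.7 to 101.5 CPM (median 62.0, log2 fold change 0.09, interval -0.18 to 0.35) and Trib3 9.08 to 55.9 CPM (median 31.6, log2 fold change -0.10, interval -0.52 to 0.32). Asns measured 0 to 2.60 CPM (median 1.01), with an interval of -1.34 to 1.30.

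The third comparison, atorvastatin-treated against chow-fed mice, shares its mice with the other comparisons. In it 2 of the 10 genes were called, both lower, where 25.0% of all genes were called, 10.7% lower and 14.2% higher. Atf4 was 1.26-fold lower (log2 fold change -0.33, SE 0.06, adjusted p = 2.05e-05), with 15 of 16 treated mice below all chow-fed mice. Xbp1 was 1.18-fold lower (log2 fold change -0.23, SE 0.07, adjusted p = 0.00982), a call kept when any of 14 mice was dropped (AZ2, AZ3, AZ6, AZ8, Gen2, Gen8, Gen11, Gen13, Gen14, Gen20, Gen24, Gen26, Gen28 or Gen34) and lost with any of the other 28, with an adjusted p up to 0.0703 (without AZ5). Ddit3 lay just outside at -0.69 (SE 0.22, adjusted p = 0.0102), and without AZ2 it was -0.81 (adjusted p = 0.00105). Hspa5 stood at -0.32 (-0.61 to -0.02), Herpud1 at -0.24 (-0.50 to 0.02) and Atf3 at 0.82 (0.12 to 1.52), with adjusted p of 0.0896, 0.149 and 0.0621. Atf3 was called higher by limma-voom (adjusted p = 0.00459), the 1 of 10 alternatives that called it.

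The other genes of the response were taken from 7 lists with 121 genes, all of them tested. On WTD 52 of the 121 (43.0%, beside 33.5% of all genes) changed relative to the bulk of genes, 15 higher and 37 lower, beside 17.5% and 16.0% of all genes. With library size scaling 52 were called higher and 9 lower, where 6249 of all 15574 genes were called, 5148 of them higher. The median of the 121 there (0.25) lay below that of all genes (0.34), as it did with TMM. With atorvastatin 8 (6.61%, beside 7.10% of all genes) rose and none fell by edgeR, beside 4.84% and 2.26% of all genes. At an unadjusted p under 0.05 edgeR gave 33 higher and 4 lower. DESeq2 called 8 higher and 1 lower, where it called 1363 of all 15574 genes, 694 of them higher. By limma-voom 19 were higher and 2 lower. Counts over all genes at that unadjusted threshold and by limma-voom are not given here, so such counts have no background, also for the lists below. With library size scaling 1 was called higher and 4 lower, and with RLE factors 4 higher and none lower. Of all 15574 genes those settings called 1352 (330 of them higher) and 1061 (582 of them higher).

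**Figure D3:**
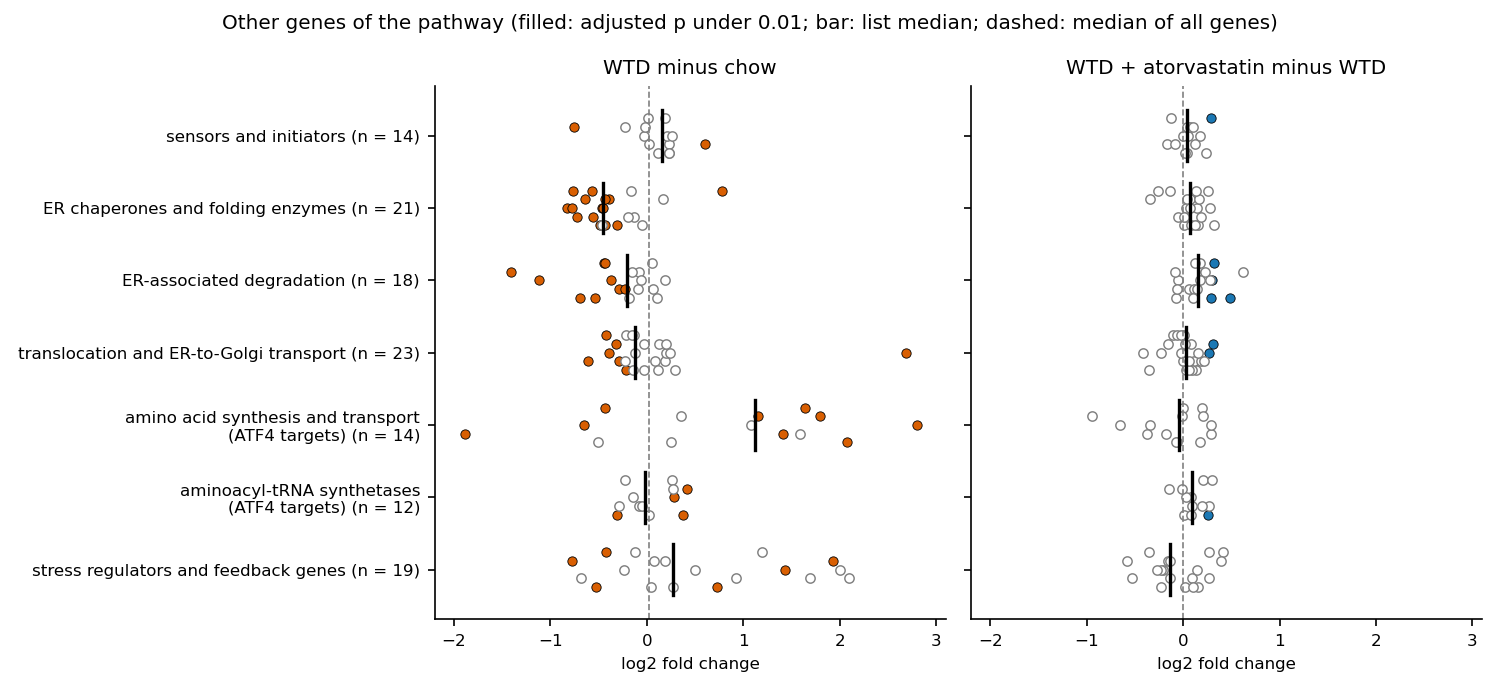
Log2 fold changes of the 121 other genes in 7 lists, for WTD against chow (left) and atorvastatin against WTD (right), with points for genes (filled where the adjusted p was under 0.01), a bar for the list median and a dashed line for the median of all genes. The list of ER chaperones sits at a median of -0.45 on WTD, and that of amino acid genes at 1.12.

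Relative to the bulk of genes, most ER chaperones and folding enzymes were lower on WTD. Of 21 genes, 14 were called lower, 6 were not called and 1 (Dnajc10, a disulfide reductase, chosen after its values were seen) higher, where 16.0% of all genes were lower and 17.5% higher. The median log2 fold change was -0.45, beside 0.03 over all genes. Ppib, a prolyl isomerase of the ER, measured 257.1 to 525.8 CPM on chow and 183.9 to 254.1 on WTD, with no overlap, and fell by 0.72 on the log2 scale (adjusted p = 5.72e-11). The disulfide isomerase gene P4hb fell by 0.45 (adjusted p = 8.93e-08), Fkbp2 by 0.57 (adjusted p = 1.01e-07) and Pdia4 by 0.76 (adjusted p = 2.29e-07). With atorvastatin none of the 21 was called by edgeR (median 0.08; 5 higher and 1 lower at an unadjusted p under 0.05), 0 by DESeq2, and 1 higher and 1 lower by limma-voom. Pdia4 stood at 0.26 (adjusted p = 0.091), the oxidase gene Ero1b at 0.27 (adjusted p = 0.095) and P4hb at 0.14 (adjusted p = 0.102). With library size scaling 2 of the 21 were called lower and 1 higher on WTD, where 6249 of all 15574 genes were called, 5148 of them higher. The list median there was -0.14, as far below the median of all genes (0.48) as with TMM.

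Relative to the bulk of genes, 9 of 18 ERAD genes fell on WTD (16.0% of all genes, list median -0.20) and 4 rose with atorvastatin (4.84% of all genes, list median 0.16), by edgeR. Hepatocyte markers moved the same way, 6 of 6 lower on WTD and 4 of 6 higher with atorvastatin, as did Herpud1. The chaperone list shared the fall on WTD, while none of its 21 genes was called with atorvastatin by edgeR. The part of the hepatocyte share in these results was not tested. Syvn1, the ubiquitin ligase HRD1, fell by 1.12 on the log2 scale (adjusted p = 1.04e-07). Its partner Sel1l measured 148.5 to 274.3 CPM on chow (median 190.3), 88.1 to 163.1 on WTD (median 123.3) and 133.3 to 204.9 with atorvastatin (median 167.6). Sel1l fell by 0.70 on WTD (adjusted p = 1.49e-09) and was 0.49 higher with atorvastatin than on WTD (adjusted p = 2.58e-05).

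Edem1, which marks glycoproteins for ERAD, fell by 0.44 on the log2 scale on WTD (adjusted p = 2.72e-06) and was 0.32 higher with atorvastatin (adjusted p = 0.000715). Derl2, a channel subunit named after its values were seen, fell by 0.37 (adjusted p = 0.000191) and was 0.30 higher with atorvastatin (adjusted p = 0.00344), and Syvn1 was not called (0.27, adjusted p = 0.224). With library size scaling 5 of the 18 were called higher and 4 lower on WTD, where 6249 of all 15574 genes were called, 5148 of them higher. The list median there (0.11) lay 0.23 below that of all genes. Sel1l alone was called with atorvastatin (0.33, adjusted p = 0.00359), where that scaling called 1352 of all genes, 330 of them higher.

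**Figure D4:**
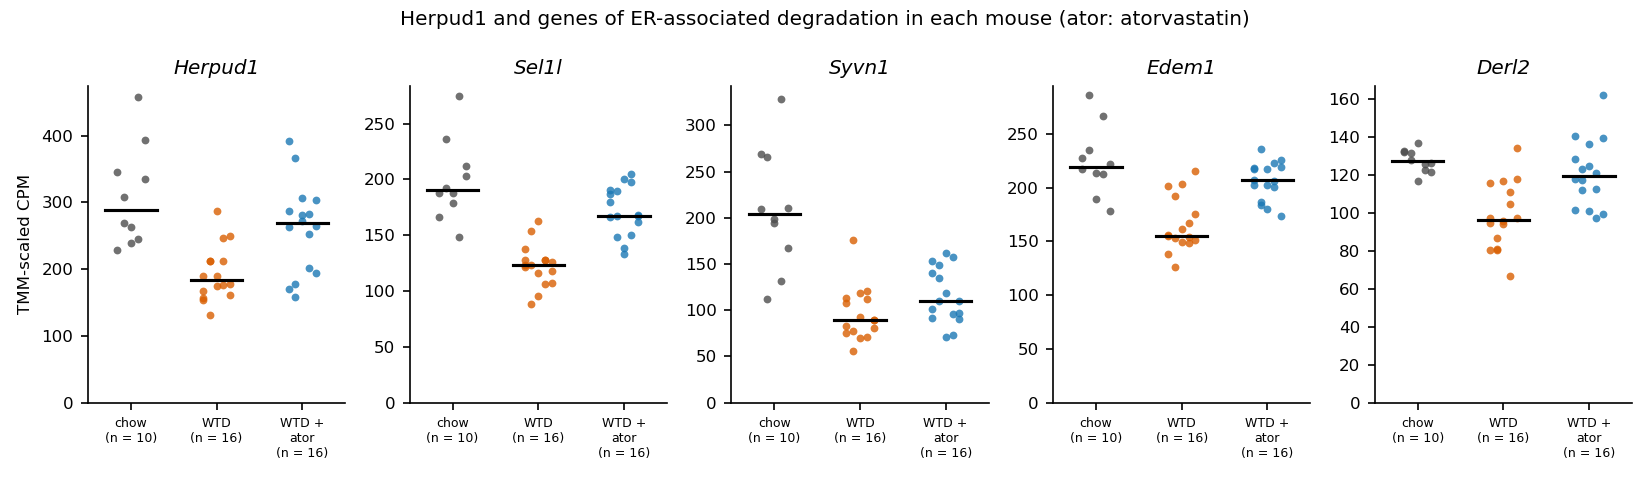
TMM-scaled CPM (linear axes from 0) of Herpud1 and 4 ERAD genes in every mouse, with points for mice and a bar for the group median. For Sel1l the medians are 190.3, 123.3 and 167.6 CPM in chow-fed, WTD-fed and atorvastatin-treated mice.

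The list of ER translocation and ER-to-Golgi transport held 23 genes, of which 6 were lower and 1 higher on WTD (median -0.12), beside 16.0% and 17.5% of all genes. Sec63, of the translocon, fell by 0.39 on the log2 scale (adjusted p = 3.51e-07), Ssr4 by 0.60 (adjusted p = 1.64e-06) and Sec62 by 0.29 (adjusted p = 5.87e-05). The cargo receptor Lman1 (0.31, adjusted p = 0.000863) and the COPII coat gene Sec31a (0.27, adjusted p = 0.00309) were higher with atorvastatin, and Srpr stood at 0.22 (adjusted p = 0.0118). With library size scaling 10 of the 23 were called higher and none lower on WTD, where 5148 of all 15574 genes were called higher. The list median there (0.19) lay below that of all genes (0.34), and Sec62 turned to 0.02. With atorvastatin that scaling called none of the 23 higher and 2 lower, with Lman1 at 0.15 (adjusted p = 0.0754) and Sec31a at 0.11 (adjusted p = 0.196), and RLE factors also lost Sec31a (adjusted p = 0.0101).

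Of 14 sensor and initiator genes 1 rose and 1 fell on WTD (median 0.15), where 17.5% of all genes rose and 16.0% fell. With library size scaling 11 were called higher and 1 lower, where 6249 of all 15574 genes were called, 5148 of them higher. The list median there was 0.47, beside 0.34 over all genes. Eif2ak3 (PERK) measured 16.4 to 28.0 CPM on chow and 19.0 to 52.5 on WTD and rose by 0.61 on the log2 scale (adjusted p = 2.54e-05). Creb3l3, a liver factor of the ER membrane that is cut like ATF6, measured 302.8 to 415.4 CPM on chow and 142.7 to 320.1 on WTD and fell by 0.75 (adjusted p = 1.18e-07), while Eif2b5 stood at -0.22 (adjusted p = 0.0622). With atorvastatin Eif2ak1, the heme-regulated eIF2α kinase, was called (0.29 higher, adjusted p = 0.00426), a call lost with RLE factors (adjusted p = 0.0122), with the covariate for missed weak genes (adjusted p = 0.0217), with library size scaling (0.12, adjusted p = 0.248) and without Gen35 (adjusted p = 0.0101). Ern1 stood at 0.24 (adjusted p = 0.0744) and Mbtps1, the protease that cuts ATF6 and SREBP, at 0.13 (adjusted p = 0.222).

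ATF4 targets for amino acid synthesis and transport went both ways on WTD, with 6 of 14 higher and 3 lower (median 1.12), beside 17.5% and 16.0% of all genes. With library size scaling 8 were called higher and 2 lower, where 6249 of all 15574 genes were called, 5148 of them higher. The list median there was 1.45, beside 0.34 over all genes. Aldh18a1, of proline synthesis, measured 0.0639 to 6.29 CPM on chow and 5.89 to 18.5 on WTD. The lowest chow value, from AZ2, was 1 count, and the chow median was 61.5 counts. Aldh18a1 rose by 2.07 on the log2 scale (adjusted p = 7.74e-09). Cth, cystathionine gamma-lyase, fell from 489.8 to 719.4 CPM on chow to 98.2 to 251.2 on WTD, a log2 fold change of -1.88 (adjusted p = 4.51e-17). Shmt2, of mitochondrial serine metabolism, fell by 0.65 (adjusted p = 1.65e-07). None of the 14 was called with atorvastatin by edgeR (3 higher at an unadjusted p under 0.05) or DESeq2, and 1 was called higher by limma-voom. There Shmt2 stood at 0.29 (adjusted p = 0.0152), Cth at 0.29 (adjusted p = 0.0792) and Slc38a2 at 0.20 (adjusted p = 0.0895).

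Of 12 aminoacyl-tRNA synthetase genes, 3 rose on WTD and 1 fell (median -0.01), beside 17.5% and 16.0% of all genes. RLE factors gave 5 higher and 1 lower, and library size scaling 6 higher and none lower (median 0.30, beside 0.34 over all genes). Of all 15574 genes these settings called 5217 (2971 of them higher) and 6249 (5148 of them higher). Gars rose by 0.41 on the log2 scale (adjusted p = 8.77e-05), Nars by 0.28 (adjusted p = 0.000278), and Aars fell by 0.30 (adjusted p = 0.000509; 0.01 with library size scaling) and was 0.26 higher with atorvastatin (adjusted p = 0.00372). The latter call was lost with RLE factors (adjusted p = 0.0122), without the 9 libraries (adjusted p = 0.0109), with the covariate (adjusted p = 0.0101) and with library size scaling (0.10, adjusted p = 0.249). Tars and Cars stood at 0.30 (adjusted p = 0.0292) and 0.27 (adjusted p = 0.0319) with atorvastatin. Of 19 stress regulators and feedback genes 3 rose and 3 fell on WTD by edgeR (median 0.28), beside 17.5% and 16.0% of all genes. DESeq2 called 8 higher and 3 lower, where it called 5720 of all 15574 genes, 3351 of them higher. By limma-voom 7 were higher and 4 lower. Library size scaling gave 11 higher and none lower, where 6249 of all 15574 genes were called, 5148 of them higher. The list median there was 0.60, beside 0.34 over all genes. None was called with atorvastatin by edgeR (3 higher and 1 lower at an unadjusted p under 0.05). DESeq2 called 1 lower, limma-voom 2 higher and 1 lower, and library size scaling 1 lower. Over all genes DESeq2 called 1363 there (694 of them higher) and library size scaling 1352 (330 of them higher). The ER caspase gene Casp12 rose by 1.93 (adjusted p = 4.24e-10) and Bcl2l11, the death factor BIM, by 1.44 (adjusted p = 2.63e-09), while Atf5 fell by 0.52 (adjusted p = 6.81e-07). With atorvastatin Casp12 stood at -0.59 (adjusted p = 0.0231), Ppp1r15b, a subunit that returns eIF2α to its unphosphorylated form, at 0.26 (adjusted p = 0.0122) and Atf5 at 0.15 (adjusted p = 0.187).

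Whether the genes moved together among mice of a group was examined for 9 pairs in each group, 27 relations of log2 CPM with two-sided permutation tests and Benjamini-Hochberg adjustment over the 27. Of these, 6 passed an adjusted p of 0.05 by both Pearson's r and Spearman's rho, and all 6 joined Hspa5 with Hsp90b1 or with Dnajb9. Hspa5 and Hsp90b1 had r = 0.96 and rho = 0.98 in the 10 chow-fed mice (permutation p = 3e-05 and 4e-05, adjusted 0.000405 and 0.00054), r = 0.66 and rho = 0.66 in the WTD-fed mice (permutation p = 0.00345 and 0.00621, adjusted 0.0186 and 0.0369) and r = 0.92 and rho = 0.90 in the atorvastatin-treated mice (permutation p = 1e-05 for both, the smallest that the permutations can give, adjusted 0.00027). Without the 2 mice farthest from the Hspa5 median r was 0.96, 0.53 and 0.91. In the 11 WTD-fed mice outside the 9 libraries r was 0.89. How the groups differ in r was not tested.

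Hspa5 and Dnajb9 had r = 0.75 and rho = 0.79 in chow-fed mice (permutation p = 0.00566 and 0.0084, adjusted 0.0255 and 0.0378), r = 0.74 and rho = 0.67 in WTD-fed mice (permutation p = 0.00082 and 0.00587, adjusted 0.00553 and 0.0369), and r = 0.75 and rho = 0.66 with atorvastatin (permutation p = 0.00077 and 0.00683, adjusted 0.00553 and 0.0369). Without the 2 farthest mice r was 0.67, 0.64 and 0.70. Without the 9 libraries the relation did not pass in the 7 chow-fed mice (r = 0.81, permutation p = 0.0206, adjusted 0.09) or, by rho, in the 11 WTD-fed mice (rho = 0.74, permutation p = 0.0128, adjusted 0.0691).

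Herpud1 and Hspa5 had r = 0.74 and rho = 0.76 in chow-fed mice (permutation p = 0.0154 and 0.0146, adjusted 0.0594 and 0.0565), r = -0.28 and rho = -0.32 in WTD-fed mice (permutation p = 0.295 and 0.231, adjusted 0.612 and 0.48) and r = -0.02 and rho = 0.06 with atorvastatin (permutation p = 0.926 and 0.839, adjusted 0.926 and 0.893). In WTD-fed mice r was -0.76 without the 2 farthest mice and 0.17 without the 9 libraries, so its sign turned with the mice included. None of the 12 relations of Atf4 with Ddit3, Trib3, Asns and Atf3 passed, and r ranged from -0.62 (Atf4 and Trib3 in chow-fed mice, rho = -0.75, permutation p = 0.0514 and 0.0168, adjusted 0.173 and 0.0566) to 0.41 (Atf4 and Trib3 in WTD-fed mice, rho = 0.36, permutation p = 0.108 and 0.177, adjusted 0.325 and 0.467). The 6 relations of Hspa5 with Xbp1 and Atf4 did not pass either.

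**Figure D5:**
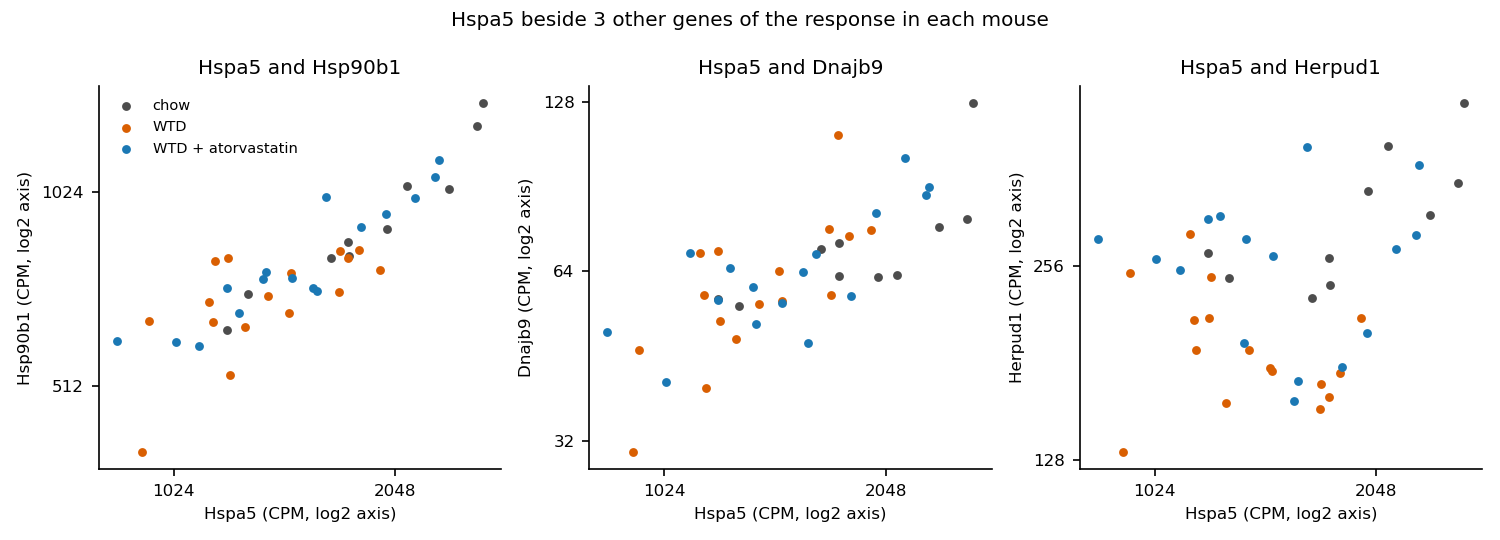
CPM of Hspa5 (horizontal, log2 axis) against Hsp90b1, Dnajb9 and Herpud1 (vertical, log2 axes), a point per mouse coloured by group. Hsp90b1 and Dnajb9 climb with Hspa5 within each group, while the relation with Herpud1 did not pass the test in any group (r of 0.74 in chow-fed, -0.28 in WTD-fed and -0.02 in atorvastatin-treated mice).

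Over all 42 mice, after the mean of each group was removed, the 5 genes with the pattern most like Hspa5 among the 15574 tested were Hyou1 (r = 0.93), Manf (0.92), Creld2 (0.92), Dnajb11 (0.91) and Pdia4 (0.89), all ER-resident proteins. Hsp90b1 came 7th (r = 0.85), Dnajb9 20th (0.73) and Ddit3 21st (0.72), while Xbp1 (0.18) and Herpud1 (0.08) ranked 3949th and 6133rd. For Asns the 5 nearest were Pif1 (r = 0.71), Ap5b1 (0.71), Kif18b (0.69), Tmem131 (0.62) and Slc16a6 (0.62), 3 of them under 4 CPM like Asns itself. These likenesses are descriptions over 42 mice that share library scaling, and the low genes also share the libraries that missed weak genes, with which Asns had r = -0.29 after the group means were removed. Single mice stood at the edge for several genes at once: AZ2 was lowest among chow-fed mice for 6 of the 9 genes detected in all mice, AZ4 highest for 5 of 10, and Gen2 and Gen20 lowest among WTD-fed mice for 4 of 9 each.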

How the data were processed

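The authors trimmed the reads (Trimmomatic), aligned them to GRCm38 with STAR 2.5 and counted reads per GENCODE gene with HTSeq 0.6.1p1, and the deposited counts were used as they are. The libraries were strand-specific, but the strand and overlap settings of the counting are not given in the sources used here. Reads of genes on opposite strands were therefore treated as possibly shared. Rows that name no gene held a mean of 2.28% (no feature), 5.95% (ambiguous) and 4.68% (not unique) and were left out.

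Symbols came from the GENCODE annotation of GRCm38. Genes were filtered with filterByExpr (minimum count 10, total 15), scaled by TMM and tested with the robust quasi-likelihood test of edgeR 4.0.16 (R 4.3.3) in 1 model of 3 groups. The threshold, adjusted p under 0.01, was that of the study. DESeq2 1.42.0, limma 3.58.1 and other settings were alternatives. Intervals are 95%. Log2 CPM for correlations had a prior count of 2, with 100000 permutations. The test was also run on simulated counts with equal numbers of genes raised and lowered. That setting does not cover the shift between TMM and library size scaling given above. Promoters were RefSeq windows of GRCm38.p6.

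The 10 genes, the pathway lists and the marker lists were chosen with earlier results of these data known. Besides the 10, the text names the 3 genes with the smallest p of each list in each of the first 2 comparisons and the 5 genes most like Hspa5 and Asns, except that 1 gene so chosen is not reported here. The mice were group-housed and atorvastatin was given in the food, while the samples carry no cage labels. Cage could therefore not be put into the model. The p-values measure the spread between these mice and treat each mouse as independent, and the part of cages was not tested. Markers of neutrophils (4 of 5 tested, all 4 higher on WTD), plasma and B cells (4 of 6 tested, 0 called, Igkc and Tnfrsf17 at 0 in most mice), T cells (0 of 5 called), stellate cells and fibroblasts (5 of 6 higher), cholangiocytes (5 of 5 higher) and sinusoidal endothelium (1 of 5 higher, 2 lower) were also measured.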

Additional observations from a re-analysis of the deposited data

Results flagged for a closer look

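Values far from the rest of their group were sought in the chow-fed mice, the group small enough for the test, for each of the 10 genes. The test marks about 1 in 20 groups by chance. The highest chow value of Xbp1, 416.3 CPM in AZ5, stood apart from the other 9 (gap over range 0.619). Without AZ5 the difference between WTD-fed and chow-fed mice was -0.14 (adjusted p = 0.0781) and that between atorvastatin-treated and chow-fed mice -0.15 (adjusted p = 0.0703), by edgeR. The highest chow value of Dnajb9, 127.0 CPM in AZ4, stood apart in the same way (gap over range 0.667), and without AZ4 the difference on WTD was -0.11 (adjusted p = 0.568).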

How the results depend on the processing

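The number of the 10 genes called on WTD was 3 with at least 10 counts in every mouse, a filter that Atf3 and Asns did not pass, and 1 with library size scaling, chosen after seeing the data. It was 4 to 6 under the other alternatives, 4 to 6 when 1 mouse was left out. With atorvastatin the count was 0 with RLE factors, upper-quartile factors, no filter, the stricter filter and library size scaling, and 0 to 1 when 1 mouse was left out. Against chow it was 3 with DESeq2, upper-quartile factors, no robust estimation and an adjusted p under 0.05, and 1 with no filter, the stricter filter, without the 9 libraries and with a covariate for the weak genes each library missed, 0 with library size scaling, and 1 to 3 when 1 mouse was left out. Of all 15574 genes, library size scaling called 6249 on WTD, 1352 with atorvastatin and 4228 against chow. DESeq2 called 5720, 1363 and 4395, upper-quartile factors 5249, 1075 and 3984, and RLE factors 5217, 1061 and 3961. The edgeR fit with TMM called 5224, 1106 and 3893. Such counts are not given here for the other settings. The correlations that passed numbered 6 with RLE factors and 4 without the 9 libraries. Signs turned with library size scaling for Xbp1 (0.087) and Dnajb9 (0.075) on WTD, Atf4 (-0.10) and Dnajb9 (-0.055) with atorvastatin, Dnajb9 against chow (0.020), Eif2b5 (0.092), Sec62 (0.023) and Aars (0.0051) on WTD, and Mbtps1 (-0.034), P4hb (-0.013) and Atf5 (-0.0056) with atorvastatin. With atorvastatin Xbp1 was 0.065 by limma-voom, 0.066 without the 9 libraries and 0.030 with the covariate, and ranged from -0.032 to 0.0065 when 1 mouse was left out, as Asns did from -0.14 to 0.14. Trib3 against chow was -0.016 by limma-voom. The cause was not tested for any of these. Counts of genes with few reads, Asns above all, limit what depth can show. No paired analysis was possible because each mouse belongs to 1 group.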
